A study of Mus musculus with 14 samples.

Results

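The genes described here are the angiopoietins *Angpt1*, *Angpt2* and *Angpt4*, the Tie receptors *Tek* (Tie2) and *Tie1*, and *Ptprb*, which encodes the receptor phosphatase VE-PTP. They were chosen by name as the ligands, receptors and phosphatase of one signaling pathway, and comprise 6 of the 26528 genes in the brain table and of the 28316 genes in the retina table. Nuclei from brain vascular fragments and from whole retinas were profiled by single nucleus (sn)RNAseq with PIPseq, a droplet method in which every captured transcript carries its own tag, the unique molecular identifier (UMI). The study asks what changes when endothelial cells (ECs) lose TGF-beta signaling. The brain data comprise 1 control and 1 CKO library, each from pooled brains, and the retina data comprise 1 control and 11 CKO libraries.

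The CKO mice are *Cdh5CreER;Tgfbr1 CKO/-*, also written *VEcadCreER;Tgfbr1CKO/-*, with 1 conditional and 1 null allele of the TGF-beta receptor gene *Tgfbr1*. The *Cdh5* (VE-cadherin) promoter limits CreER to ECs, and 4-hydroxytamoxifen (4HT) was given to CKO mice between postnatal days 3 and 5. The labels of the control libraries give no 4HT days, so the treatment may differ along with genotype. The null allele is present in every cell of a CKO mouse, so a difference in cells other than ECs is not limited to the endothelial deletion. Control mice are labeled WT, and the paper describes its control retinas as mostly carrying CreER with a conditional and a normal allele; whether that holds for these libraries is not stated. The age at collection is postnatal day 14 in the paper and young adult in the labels. All levels below are CPM, the UMIs of a gene scaled by the UMIs of all genes in the same cell type and library.

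Angiopoietin-1 is made mainly by perivascular cells and activates Tie2 on ECs, which promotes vessel stability and quiescence. Angiopoietin-2 is made by ECs, above all in remodeling and sprouting vessels, and acts as a weak or context-dependent agonist of Tie2 that can oppose angiopoietin-1. Tie1 is a related receptor without a well established ligand of its own that associates with Tie2, and VE-PTP removes phosphate from Tie2 and from VE-cadherin complexes.

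In the brain data, 2475 of 16649 control and 2944 of 14675 CKO nuclei carry the EC label, with medians of 1347 and 1491 UMIs. The brain libraries also differ in the sex-linked transcript *Xist*, at 1963 CPM in the control and 1.29 CPM in the CKO, and in the Y-linked *Uty*, at 64.5 and 133 CPM. The control pool thus holds transcripts of both sexes and the CKO pool almost no *Xist*, and genotype and the mix of sexes cannot be told apart. *Tgfbr1* itself is at 69.1 CPM in control ECs and 62.9 CPM in CKO ECs, and sums over the whole gene do not show how many of the CKO nuclei carry the deletion. Barcodes found in both brain libraries number 2, and in more than 1 retina library 10. With 1 brain library per genotype no test between the genotypes is possible, and the 95% intervals below cover counting error only.

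Within brain ECs, *Ptprb* was lower in the CKO library by about a factor of 2, as was *Angpt1* from few UMIs, *Angpt2* was moderately higher, and *Tek* was at nearly the same level. The difference in *Ptprb*, a gene that restrains Tie2 signaling, was seen in arterial, capillary, venous, tip and cycling subsets alike, which overlap in their nuclei. The difference in *Angpt2* lay largely in nuclei with cell cycle transcripts. With a ratio past 1.5 in either direction as the rule, among genes with at least 50 UMIs in the cell type, 2 of the 5 measurable members passed in ECs, both lower in the CKO. The same rule takes 30.7% of all 11351 such genes in ECs, 2428 of them higher and 1058 lower, so a count of 2 of 5 is not a result about the family. Scaling by TMM instead gives 1988 higher and 1385 lower.

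Among the ligands, *Angpt1* was low in ECs, at 118 UMIs or 20.3 CPM in the control (95% Poisson interval 16.8 to 24.4) and 69 UMIs or 10.1 CPM in the CKO (7.84 to 12.7). The ratio of CKO over control was 0.495 (0.362 to 0.672). *Angpt2* was at 832 UMIs or 143 CPM (134 to 153) in control ECs and 1325 UMIs or 193 CPM (183 to 204) in CKO ECs, a ratio of 1.35 (1.24 to 1.47). ECs held 75.6% of all *Angpt2* UMIs of the control library. *Angpt4* had 5 UMIs in control ECs and 0 in CKO ECs, too few for a ratio.

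For the receptors, *Tek* stood at 758 CPM (735 to 780) in control ECs and 751 CPM (731 to 772) in CKO ECs, with a ratio of 0.992 (0.952 to 1.03). *Tie1* stood at 241 CPM (228 to 254) and 271 CPM (259 to 284), a ratio of 1.13 (1.05 to 1.21). ECs held 82.6% of *Tek* and 86.5% of *Tie1* UMIs of the control library, shares that also depend on the number of EC nuclei. Both receptors were also found in vSMCs, at the levels given below. *Ptprb* had 13045 UMIs in control ECs and 8127 in CKO ECs. Its level was 2249 CPM (2210 to 2287) in the control and 1186 CPM (1160 to 1212) in the CKO, a ratio of 0.527 (0.513 to 0.542).

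**Figure D1:**
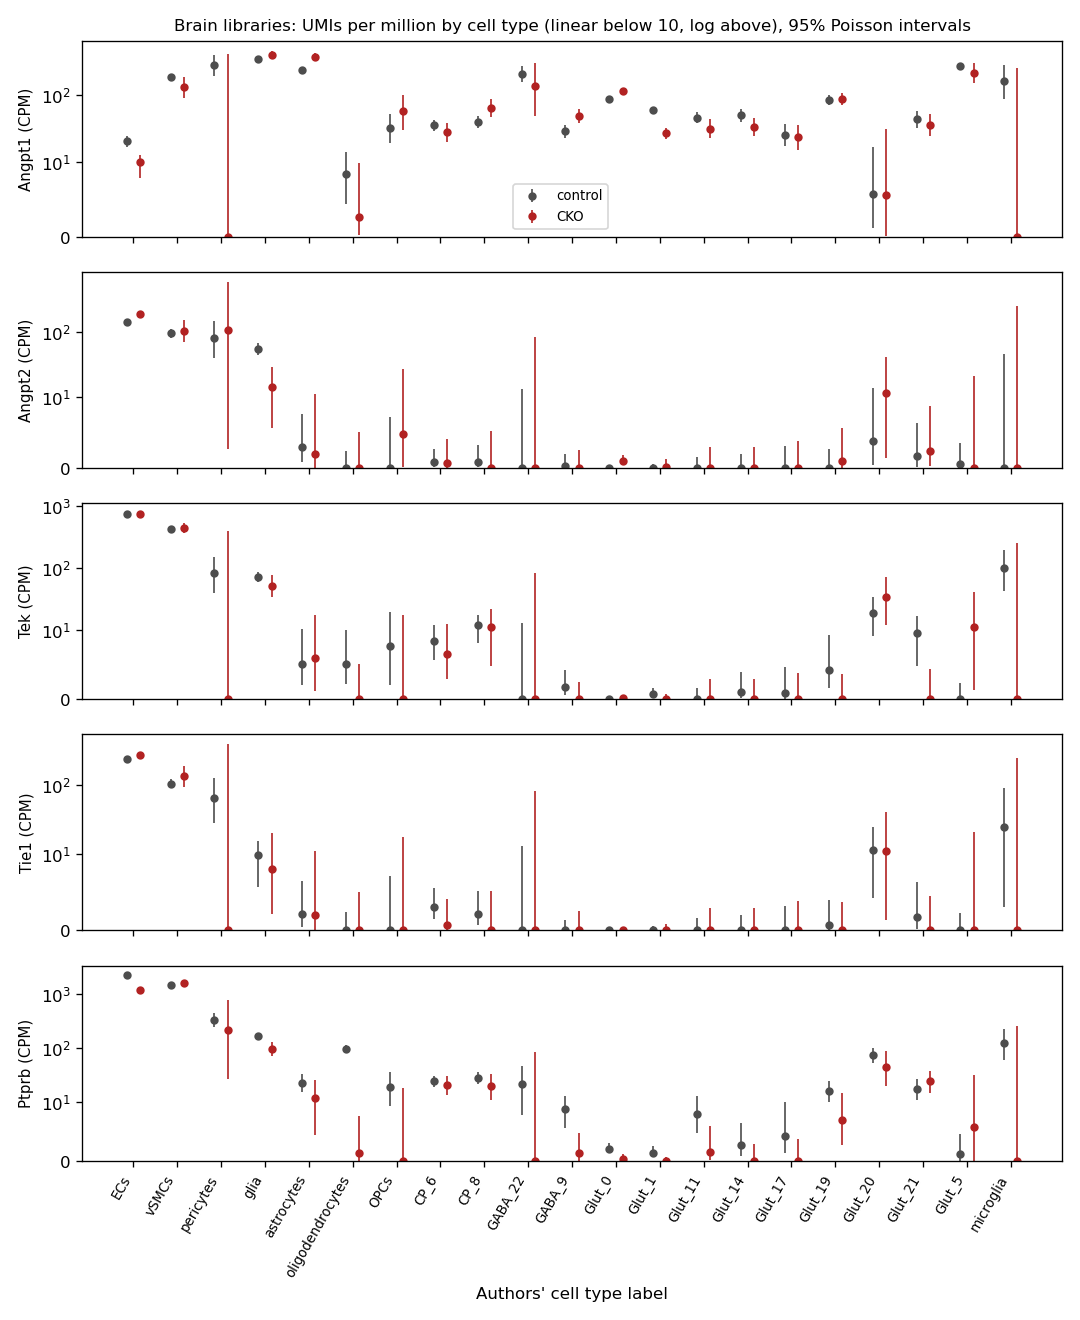
Levels of 5 of the genes in the control (grey) and CKO (red) brain library by the authors' cell type label, in CPM on an axis that is linear below 10 and logarithmic above, with 95% Poisson intervals. *Ptprb* is lower in CKO ECs (1186 against 2249 CPM) and close in vSMCs (1599 against 1494 CPM), whereas *Angpt1* is higher in glia and astrocytes than in ECs.

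The share of nuclei with a UMI gave the same order. After each nucleus was thinned to 500 UMIs, which leaves out 416 control and 343 CKO EC nuclei, 68.9% of control and 47.6% of CKO ECs held a *Ptprb* UMI, against 93.2% and 80.6% before thinning. For *Tek* the thinned shares were 34.8% and 32.9%, and for *Angpt2* 6.41% and 8.92%. In the neurons labeled Glut_1, taken as a background type, the thinned share of *Ptprb* was 0.128% in the control and 0 of 1890 in the CKO, at medians of 3603 and 1653 UMIs before thinning. The EC shares of *Ptprb* thus lie far above this type. The thinned share of *Angpt1* in ECs was only 0.680% (0.372 to 1.14) in the control and 0.461% (0.239 to 0.805) in the CKO, with overlapping intervals, against 3.39% and 1.83% before thinning. Both thinned values lie below those of Glut_1, 2.83% and 1.27%, but Glut_1 has more *Angpt1* than ECs and is no background type for this gene. In oligodendrocytes, a type low in *Angpt1*, the thinned shares were 0.169% (0.00429 to 0.941) in the control and 0.168% (0.00426 to 0.934) in the CKO. These intervals overlap those of ECs, and whether *Angpt1* in EC nuclei comes from ECs was not tested. UMIs of *Ptprb* per UMI of *Tek* in ECs were 2.97 (2.87 to 3.07) in the control and 1.58 (1.52 to 1.63) in the CKO.

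EC nuclei were also sorted by UMIs of at least 2 different markers of a vessel type, and 1 nucleus may fall in several subsets. The capillary subset holds 93.2% of control and 89.1% of CKO ECs, so it is nearly the whole label. *Ptprb* was at 1894 CPM in control and 1206 CPM in CKO nuclei with arterial markers such as *Gja5* and *Bmx*, a ratio of 0.637 (0.607 to 0.669). The ratio was 0.541 (0.5256 to 0.556) with capillary markers, 0.575 with venous markers and 0.538 (0.517 to 0.559) with tip markers. *Ptprb* was thus lower in the CKO in each subset, including cycling nuclei at 0.639 (0.591 to 0.690). Nuclei in the arterial but not the venous subset had a *Ptprb* ratio of 0.619 (0.577 to 0.665). Those in the venous but not the arterial subset had 0.541 (0.512 to 0.572). *Angpt1* in ECs was lower in each of the same overlapping subsets, from few UMIs. Its ratios went from 0.315 (0.133 to 0.733, 14 and 12 UMIs) in cycling to 0.512 (0.352 to 0.738) in arterial nuclei. In the arterial but not the venous subset it was 0.553 (0.257 to 1.18), from 17 and 15 UMIs. In the venous but not the arterial subset it was 0.0789 (0.00904 to 0.318), from 24 and 2 UMIs.

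*Angpt2* was highest in control nuclei with tip markers such as *Esm1* and *Apln*, at 192 CPM, followed by capillary (143), venous (125), arterial (76.8) and cycling (74.4) subsets. In the CKO the order began with tip nuclei at 265 CPM and cycling nuclei at 247 CPM. The ratio in cycling nuclei, defined by markers such as *Mki67* and *Top2a*, was 3.33 (2.47 to 4.56), from 49 control and 444 CKO UMIs. These nuclei made up 5.13% of control ECs (127 nuclei) and 15.3% of CKO ECs (450 nuclei). In EC nuclei with no UMI of a cycling marker, *Angpt2* was at 158 CPM in the control and 160 CPM in the CKO, a ratio of 1.01 (0.906 to 1.13). Limiting these to nuclei with at least 1000 UMIs, a choice made after seeing the data, gave 0.936 (0.8287 to 1.06). *Ptprb* in the same nuclei kept a ratio of 0.589 (0.5676 to 0.612).

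The EC label does not hold endothelial transcripts alone. All 9 endothelial markers had UMIs in both libraries, summing to 11423 CPM in the control and 9228 CPM in the CKO, with *Flt1* the most abundant. All 8 pericyte markers had UMIs too, summing to 7323 and 6336 CPM, of which *Rgs5* made up 5631 and 4831 CPM. In control pericytes *Rgs5* was at 5253 CPM. In EC nuclei with few pericyte marker UMIs, under 10% of pericyte plus endothelial marker UMIs, the ratio was 2.70 for *Angpt2*, 0.661 for *Tek* and 0.314 for *Ptprb*. This subset holds only 475 of 2475 control and 196 of 2944 CKO EC nuclei. *Angpt2* had 61 and 72 UMIs there, and *Ptprb* 1748 and 240. The part of mixed nuclei in these ratios was not tested beyond this subset.

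**Figure D2:**
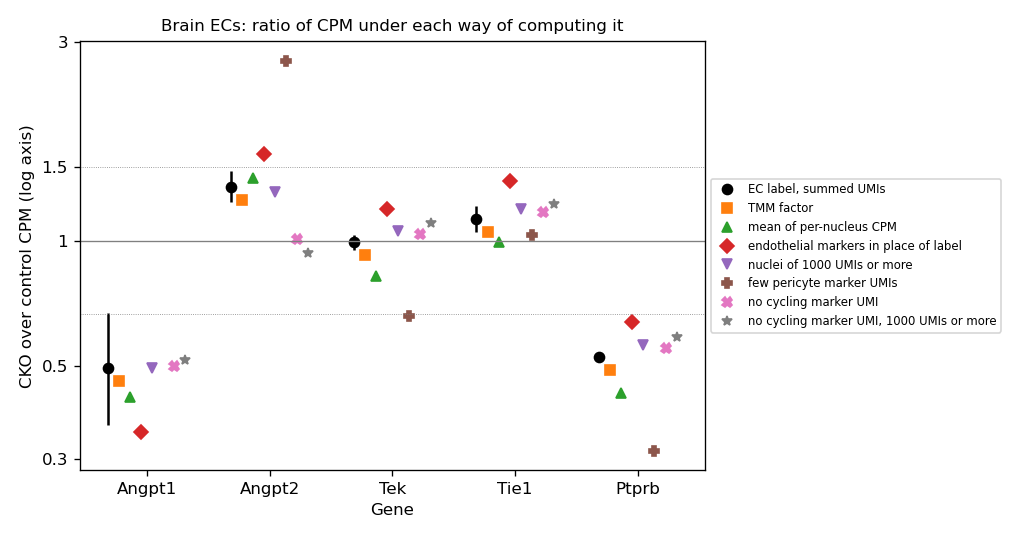
Ratio of CKO over control CPM in brain ECs for 5 genes on a log axis, with 1 symbol for each way of computing it, 95% intervals on the black points, and dotted lines at a factor of 1.5. *Ptprb* lies between 0.314 and 0.638 and *Angpt1* between 0.349 and 0.517, whereas *Angpt2* ranges from 0.936 to 2.70. The values 0.314 and 2.70 come from the subset with few pericyte marker UMIs, 475 control and 196 CKO nuclei.

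The remaining cell types of the brain libraries show where each gene is used. Over all 21 labels, the rule on size took 10 of 30 pairs of a member and a cell type, against 24.7% of all 108227 pairs of a gene and a cell type. Of the 10 pairs, 3 were higher and 7 lower in the CKO. With TMM scaling, applied to all labels after seeing the data, 1 was higher and 11 lower, and 25.2% of all pairs passed, so the split depends on the scaling.

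*Angpt1*, the ligand supplied to ECs by their neighbors, was highest in the control in nuclei labeled glia at 335 CPM (308 to 363), pericytes at 279 CPM (193 to 390), Glut_5 neurons at 268 CPM (244 to 295) and astrocytes at 236 CPM (211 to 263). GABA_22 neurons at 206 CPM, vSMCs at 182 CPM and microglia at 163 CPM followed. Neighbors in this order overlap in their intervals. Glut_0 neurons, at 87.6 CPM, held the largest number of its UMIs, 25.6% of the control library. Glut_19 (84.0 CPM), Glut_1 (58.9), Glut_14 (49.4), Glut_11 (46.0), Glut_21 (43.7), CP_8 (39.6), CP_6 (35.4), OPCs (32.6), GABA_9 (29.0) and Glut_17 (25.4) lay between Glut_0 and ECs. The lowest level among labels with at least 10 UMIs was in oligodendrocytes, at 8.38 CPM, below ECs. The nuclei labeled glia also carry fibroblast markers, all 5 in both libraries, with *Col1a2* at 1602 and 1703 CPM.

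Between genotypes, *Angpt1* was at 364 CPM in CKO astrocytes (313 to 421), a ratio of 1.54 (1.28 to 1.86). It was also above the rule in CP_8 (1.62, 1.11 to 2.34) and GABA_9 (1.69, 1.21 to 2.35), of which only GABA_9 stays above it with TMM (1.68, beside 1.31 in astrocytes and 1.496 in CP_8), and below it in Glut_1 (0.457, 0.369 to 0.562) and GABA_22 (0.652, 0.230 to 1.51). Glia were at 395 CPM (ratio 1.18, 0.998 to 1.39) and vSMCs at 132 CPM (0.722, 0.490 to 1.03). In Glut_5 the ratio was 0.788 (0.547 to 1.10). With TMM, *Angpt1* in Glut_5 (0.513) and vSMCs (0.640) falls below the rule, as do *Tek* in glia (0.622) and *Ptprb* in CP_8 (0.640). The direction of *Angpt1* therefore differed between cell types. The ratio was 1.29 (1.18 to 1.41) in Glut_0, within the factor of 1.5. Pericytes cannot be compared, since the CKO library has 22 pericyte nuclei with 0 *Angpt1* UMIs, which allows up to 400 CPM by the upper Poisson limit, and 34 UMIs in 201 control nuclei.

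*Angpt2* followed ECs in vSMCs, at 95.7 CPM in the control and 105 CPM in the CKO (1.09, 0.696 to 1.65, but 0.725 as the mean over nuclei and 1.38 in nuclei of at least 1000 UMIs), and in pericytes at 82.1 CPM from 10 UMIs in the control. In glia it was at 54.8 CPM in the control and 14.0 CPM in the CKO, from 95 and 7 UMIs, a ratio of 0.256 (0.1001 to 0.548). This ratio is 0.0847 as the mean over nuclei and 0.584 in nuclei of at least 1000 UMIs, so its size is uncertain. In every other labeled cell type it had fewer than 10 UMIs. *Angpt4* had 27 UMIs in the whole brain data, of which oligodendrocytes held 9 in the control and 8 in the CKO.

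*Tek* was at 431 CPM in control and 445 CPM in CKO vSMCs (1.03, 0.839 to 1.26), 82.1 CPM in control pericytes and 72.1 CPM in control glia. Lower levels of *Tek* were in Glut_20 (19.0 CPM), CP_8 (12.3), Glut_21 (9.62), CP_6 (8.48) and astrocytes (5.14). *Tie1* was at 105 and 135 CPM in vSMCs (1.29, 0.866 to 1.86), with 0.871 as the mean over nuclei, so neither *Angpt2* nor *Tie1* has a clear direction there. It was at 9.81 CPM in control glia and 3.03 CPM in control CP_6. *Ptprb* was at 1494 CPM (1434 to 1556) in control and 1599 CPM (1448 to 1760) in CKO vSMCs, a ratio of 1.07 (0.961 to 1.19). In both libraries its interval does not overlap that of ECs, above vSMCs in the control and below them in the CKO. Control pericytes were at 336 CPM, microglia at 125 CPM from 10 UMIs, and Glut_20 neurons at 74.0 CPM. Low *Ptprb* levels of the control were in CP_8 (28.2 CPM), CP_6 (23.9), astrocytes (22.8), OPCs (19.2), Glut_21 (17.5), Glut_19 (15.8), GABA_9 (8.71), Glut_11 (7.96), Glut_0 (2.15) and Glut_1 (1.44). The nuclei labeled vSMCs hold all 5 smooth muscle markers, at 4495 and 4018 CPM, and all 9 endothelial markers, at 4617 and 4343 CPM, so the label mixes both. In vSMC nuclei with UMIs of fewer than 2 endothelial markers, a choice made after seeing the data, the ratio was 1.21 (0.677 to 2.08) from 46 and 20 UMIs.

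Outside the vascular labels, *Ptprb* was lower in CKO glia, at 166 CPM (147 to 186) against 96.2 CPM (70.9 to 127), a ratio of 0.581 (0.418 to 0.790). The endothelial markers in glia went from 825 to 499 CPM, and their part in this difference was not tested. The thinned shares of *Ptprb* in glia were nearly equal, at 3.38% (2.37 to 4.68) in the control and 3.19% (1.39 to 6.18) in the CKO, against 8.31% and 5.97% before thinning, at medians of 879 and 582 UMIs. Thinning left out 193 control and 168 CKO glia nuclei. Nuclei with at least 5 *Ptprb* UMIs were 22 of 1227 in the control, with 154 of the 287 UMIs, and 2 of 419 in the CKO, with 11 of 48. They were picked by the gene itself, and their part in the difference was not tested. In oligodendrocytes *Ptprb* had 151 UMIs in the control, or 97.3 CPM (82.4 to 114), and 1 UMI in the CKO, or 1.37 CPM (0.0348 to 7.65), a ratio of 0.0141 (0.000355 to 0.0798). These UMIs came from 69 of 603 control nuclei and 1 of 640 CKO nuclei, and 6 control nuclei with at least 5 UMIs each held 56 of them. After thinning, 3.22% of control oligodendrocyte nuclei and 0 of 594 CKO nuclei held a *Ptprb* UMI, against 11.4% and 0.156% before, at medians of 2328 and 954 UMIs.

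A few of the control oligodendrocyte nuclei with *Ptprb* also carry endothelial transcripts, and most do not. All 8 *Tek* UMIs of control oligodendrocytes lie in the 69 nuclei with *Ptprb*, and 0 in the 534 without, and *Ptprb* per *Tek* UMI was 18.9 (9.34 to 44.5). Endothelial markers were at 373 CPM in the control oligodendrocyte nuclei with *Ptprb* and at 1.55 CPM in those without, whereas CKO oligodendrocytes had UMIs of 0 of the 9 endothelial markers. Nuclei with no endothelial marker UMI, a choice made after seeing the data, are 591 of the 603 control nuclei and hold 96 of the 151 *Ptprb* UMIs, at 63.9 CPM against 1.37 CPM in the CKO. How much of the *Ptprb* comes from admixed endothelial RNA was not tested. Oligodendrocyte markers stood at 18943 CPM in the control and 20617 CPM in the CKO.

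The genes closest in pattern were found by the Pearson correlation of log2(CPM + 1) over 42 profiles, 1 for each brain label and library, among 14443 genes with at least 200 UMIs. These profiles share libraries and depth, and the values are descriptions. *Tie1* was closest to *Pecam1* (r = 0.975), *Slc39a8* (0.970) and *Adcy4* (0.969), *Tek* to *Adgrf5* (r = 0.960), *Slc7a1* (0.957) and *Thsd1* (0.952), and *Ptprb* to *Flt1* (r = 0.954), *Adgrl4* (0.944) and *Zfp366* (0.938). *Angpt2* was closest to *Esyt1* (r = 0.958), *Smtn* (0.955) and *Tpm4* (0.955), and *Angpt1* to *Marchf3* (r = 0.815), *Mapk4* (0.721) and *Phykpl* (0.717). Among members, *Tek* and *Tie1* had r = 0.934, whereas *Angpt1* had r = 0.00322 with *Angpt2* and 0.191 with *Tek*.

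Other genes of the pathway were read in ECs from a list of 51 genes, of which 38 had at least 50 UMIs. By the same rule 2 were higher and 7 lower in the CKO, or 23.7% of those measured beside 30.7% of all genes, and their median log2 ratio was -0.03 beside 0.14 for all genes. Of the 4 quiescence genes listed downstream of Tie2, 3 were lower, beside 9.32% of all genes in ECs. The list was chosen with earlier results of these data known, and whether such genes differ as a set was not tested. The 3 are the transcription factors *Klf2* (631 against 392 CPM, ratio 0.622) and *Klf4* (255 against 118 CPM, ratio 0.463) and the nitric oxide synthase *Nos3* (274 against 156 CPM, ratio 0.571). The other gene, *Thbd*, was at 108 against 109 CPM, a ratio of 1.003 (0.901 to 1.12). *Cdh5*, which encodes VE-cadherin, a partner of VE-PTP, was at 667 CPM in the control and 1003 CPM in the CKO, a ratio of 1.503 (1.44 to 1.56). With TMM scaling, an alternative chosen for these genes after seeing the data, the *Cdh5* ratio is 1.40 and no longer past the rule, and 1 gene of the list is higher and 10 are lower.

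The FOXO target *Bcl2l11*, which encodes the pro-apoptotic protein BIM, had a ratio of 1.86 (1.601 to 2.17). The phosphatase gene *Ptprj*, related to *Ptprb*, had a ratio of 0.583 (0.503 to 0.676), and the angiopoietin-like gene *Angptl4* 0.617 (0.524 to 0.726). The integrin gene *Itga5* was at 0.647 (0.569 to 0.734) and the adaptor gene *Grb7* at 0.547 (0.400 to 0.743). The members measured on the FOXO and adaptor lists were otherwise within the factor of 1.5.

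In the retina, where 11 cell types are labeled and ECs are not among them, these genes were read mostly in neurons and glia. The control library holds 11513 nuclei and 30989702 UMIs, and the CKO libraries between 104 and 18862 nuclei. Values use the libraries with at least 10 nuclei of a type. The control and CKO replicates 1 to 3 form batch 1, and the other batches hold CKO libraries only. The control and CKO replicates 1, 2, 4 and 7 are high in *Xist* (5577 to 6823 CPM), the other 7 CKO libraries are at 12.9 CPM or less, and sex was not in the fits, so its part was not tested. Nuclei with UMIs of at least 3 endothelial markers numbered 1 of 11513 in the control and 22 of 66163 in the CKO, and the latter held 14 *Tek* and 18 *Ptprb* UMIs. The retinal values are therefore not those of retinal ECs.

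Summed over all libraries, retinal *Angpt1* was highest in astrocytes, at 136 CPM (114 to 160) from 220 CKO and 12 control nuclei. It then followed the order glycinergic amacrine cells (Gly_AC) at 48.2 CPM (45.8 to 50.7), retinal ganglion cells (RGC) at 28.4 CPM (26.1 to 30.9), GABAergic amacrine cells (GABA_AC) at 25.4 CPM (23.9 to 26.9), HC at 11.5 CPM, CBC at 10.5 CPM and immune cells at 10.1 CPM. MG were at 7.33 CPM, cones at 3.84 CPM, RBC at 1.75 CPM and rods at 1.16 CPM. These intervals leave out the spread of libraries. In the control alone astrocytes had 0 UMIs and Gly_AC were at 41.3 CPM, but 12 control nuclei are too few to place astrocytes in the order. The first place thus rests on CKO libraries. Gly_AC held 37.2% of all *Angpt1* UMIs.

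In astrocytes *Angpt1* had 0 UMIs in 12 control nuclei, where 3 counts would be 95.9 CPM. Markers of other cell types also differ in these nuclei, with pericyte markers at 95.9 CPM in the control and 523 CPM in the CKO and bipolar markers at 544 and 1703 CPM, and their part was not tested. The 8 CKO libraries ranged from 0 to 280 CPM with a median of 119, and 7 were above the control (two-sided exact permutation test over libraries, p = 0.333, the smallest possible being 0.111). Within batch 1 the values were 135 and 280 CPM in 2 CKO libraries. Gly_AC were at 41.3 CPM in the control and between 34.5 and 73.7 CPM in the CKO, with a median of 41.8, so the control lies inside the CKO range.

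In MG, the Müller glia, *Angpt1* had 0 of 1511111 UMIs in 402 control nuclei, which allows up to 2.44 CPM by the upper Poisson limit. The 10 CKO libraries ranged from 2.67 to 19.6 CPM with a median of 7.47 and 105 UMIs in all. All 10 lie above the control, but the difference did not pass the test (edgeR quasi-likelihood, unadjusted p = 0.0119, Benjamini-Hochberg adjusted p = 0.604). Within batch 1 the CKO values were 3.04, 13.9 and 19.3 CPM. *Ptprb* in MG was at 1.32 CPM from 2 UMIs in the control and between 2.46 and 11.95 CPM in the CKO, again above it in 10 of 10 libraries (edgeR adjusted p = 0.712). The endothelial marker sum in MG was 936 CPM in the control and 938 CPM in the CKO, nearly all of it *Flt1*. Amacrine markers in MG were at 17.2 CPM in the control and 40.5 CPM in the CKO, and horizontal cell markers at 2.65 and 9.91 CPM. The part of RNA from these cells in the MG values was not tested.

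*Angpt2* in the retina was a gene of horizontal cells (HC), which held 50.8% of its UMIs at 69.0 CPM (63.1 to 75.4). Among types with at least 10 UMIs, the next were GABA_AC at 4.27 CPM, RGC at 2.72 CPM, CBC at 2.26 CPM, RBC at 1.57 CPM, Gly_AC at 1.35 CPM, MG at 1.05 CPM and rods at 0.456 CPM. HC were at 68.1 CPM in the control and from 27.6 to 135 CPM, with a median of 61.3, in 10 CKO libraries, of which 4 were above the control. The difference in means was 0.114 CPM (exact permutation p = 1, the smallest possible being 0.0909). Within batch 1 the CKO values were 38.6, 40.5 and 67.5 CPM, all below the control (exact p = 0.5). In GABA_AC the control was at 2.52 CPM and the CKO libraries from 3.10 to 5.85 CPM, 10 of 10 above it (edgeR adjusted p = 1).

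*Angpt4* was highest in astrocytes at 37.1 CPM (26.3 to 50.9), from 38 of its 163 retinal UMIs, with 1 UMI in the control and CKO libraries from 0 to 78.0 CPM. Cones (1.01 CPM), rods (0.867), Gly_AC (0.376) and CBC (0.367) followed. *Tek* was highest in Gly_AC at 5.60 CPM (4.81 to 6.49), at 3.96 CPM in the control and from 1.74 to 9.34 CPM, with a median of 5.81, in the CKO (exact permutation p = 0.545, the smallest possible being 0.0909). RGC at 3.09 CPM, RBC at 2.50 CPM, GABA_AC at 2.06 CPM, cones at 1.82 CPM, CBC at 1.49 CPM, rods at 1.48 CPM and MG at 0.907 CPM followed, each of these overlapping the next. *Tie1* had 36 UMIs in the retina, 10 of them in rods (0.152 CPM), too few for an order of cell types.

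*Ptprb* was highest in rod bipolar cells (RBC) at 39.0 CPM (36.1 to 42.0), which held 36.3% of its retinal UMIs. Gly_AC followed at 8.89 CPM and CBC at 7.70 CPM, then immune cells at 6.75 CPM, RGC at 6.29 CPM, MG at 5.58 CPM, GABA_AC at 5.57 CPM and HC at 5.34 CPM, each of these overlapping the next, and rods at 0.487 CPM. In RBC the control was at 44.0 CPM and 10 CKO libraries lay between 21.3 and 68.7 CPM, with a median of 36.7 and 2 above the control (exact permutation p = 0.545, the smallest possible being 0.0909). Within batch 1 the 3 CKO libraries were at 21.3, 40.6 and 42.4 CPM. All 3 lie below the control, but the test cannot reach a p under 0.05 with these numbers of libraries.

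**Figure D3:**
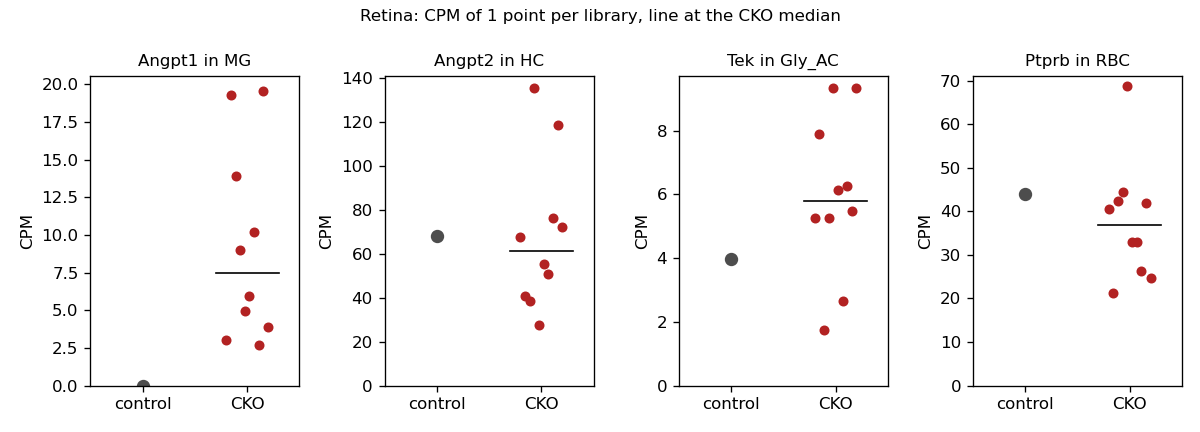
CPM in the control (grey) and each CKO library (red) with at least 10 nuclei for *Angpt1* in Müller glia, *Angpt2* in horizontal cells, *Tek* in glycinergic amacrine cells and *Ptprb* in rod bipolar cells, with a line at the CKO median. The control lies inside the CKO range in 3 of the 4 panels and at 0 UMIs in Müller glia.

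Over the 11 retinal cell types, 20 pairs of a member and a cell type had enough UMIs for the edgeR quasi-likelihood test, with batch as a covariate. At an adjusted p under 0.05, 0 of 20 passed, where 0.00499% of all 120124 pairs of a gene and a cell type did. At an unadjusted p under 0.05, 3 of 20 passed, *Angpt1* in astrocytes and MG and *Ptprb* in MG, beside 3.09% of all pairs. With DESeq2, 0 passed after adjustment, and 2 passed unadjusted, *Angpt1* in astrocytes and in MG. DESeq2 gave no adjusted p for 5 of the 20, among them *Angpt1* (unadjusted p = 0.00473) and *Ptprb* in MG, so its count after adjustment does not cover these. The pairs at an unadjusted p under 0.05 lie in astrocytes and MG, where a larger share of all genes had such a p than over all cell types. The test assumes that the single control library varies like the CKO libraries. Of 303 tests of pathway genes in the retina, edgeR called 0 after adjustment and 15 at an unadjusted p under 0.05.

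By the same correlation over 22 retinal profiles and 17299 genes, *Angpt1* was closest to *Adamts20* (r = 0.928), *Angpt2* to *Wnk4* (r = 0.920) and *Lama3* (0.904), *Tek* to *Dnah6* (r = 0.858) and *Ptprb* to *A230077H06Rik* (r = 0.912). None of these was among the genes closest in the brain.

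In the GRCm39 annotation *Angpt1* lies at chr15:42288058-42540417 and *Angpt2* at chr8:18739202-18791603, both on the minus strand, and *Angpt4* at chr2:151753127-151787257 on the plus strand. *Tek* lies at chr4:94627291-94763224 on the plus strand, *Tie1* at chr4:118328385-118347261 on the minus strand and *Ptprb* at chr10:116111428-116225440 on the plus strand. *Angpt2* lies inside *Mcph1* and *Tie1* inside *Gm70435*, each on the opposite strand, and *Angpt1* and *Ptprb* overlap other genes in part. Whether UMIs were assigned by strand was not stated, so reads of the overlapping parts cannot be told apart for any of these genes. *Mcph1* was at 66.5 CPM in control and 71.5 CPM in CKO ECs. In the retina *Mcph1* had 14176 UMIs beside 966 of *Angpt2*. Whether its reads enter the retinal *Angpt2* levels, including those of horizontal cells, was not tested.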

How the data were processed

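The authors counted UMIs with PIPseeker on GRCm39, per the paper's methods, although the submitters' processing notes name mm10 and Seurat. They removed background with CellBender and doublets with SOLO, and removed mixed nuclei by hand. The deposited tables hold integer UMI counts for every gene in each nucleus, with the authors' cell type labels. Library, batch and kit are labeled for the retina, and the barcode suffix gives the library of a brain nucleus. No further filter was applied to nuclei.

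UMIs were summed per cell type and library and divided by their total (CPM). Brain intervals are exact Poisson for levels and exact conditional binomial for ratios, which used no pseudocount. Retinal sums of libraries with at least 10 nuclei were tested with edgeR 4.0.16 (quasi-likelihood, TMM, genes with at least 10 UMIs in at least 3 libraries, Benjamini-Hochberg, threshold 0.05), with DESeq2 1.42.0 as an alternative, in R 4.3.3. The ratios were run on simulated sums with counting error only, and the edgeR test on simulated Gly_AC counts with a fixed spread between libraries. These runs do not show how either performs under the real spread between libraries. Sums, intervals and plots were made with Python 3.11.15 (scipy 1.17.1, numpy 2.4.6, pandas 2.3.3, matplotlib 3.10.9).

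Alternatives covered scaling, labels, depth and weighting of nuclei, pericyte and cycling markers, covariates, filters and left-out libraries. Named are all members with at least 10 UMIs in a cell type and pathway genes past the factor of 1.5 (at most 3 per sublist and direction). The 3 genes closest to each member measured are named for the brain, and fewer for the retina. Members and lists were chosen with earlier results of these data known. Gene positions come from GENCODE on GRCm39.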

Additional observations from a re-analysis of the deposited data

Results flagged for a closer look

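In the retina, CPM of each gene was compared over the CKO libraries of a cell type, in 36 groups, and in 5 of them 1 library stood apart from the rest. How often chance alone sets apart a library was not tested, and some of the values rest on few UMIs. *Ptprb* in RBC was at 68.7 CPM in CKO replicate 6, from 59 UMIs, and at most 44.5 CPM in the other 9. The other 4 are in CBC. *Angpt1* was at 20.7 CPM in CKO replicate 10, with the next library at 13.4 CPM, and *Angpt2* at 6.30 CPM in CKO replicate 3, with the next at 2.83 CPM. *Tek* was at 2.99 CPM in CKO replicate 2, from 6 UMIs, with the next at 1.70 CPM, and *Ptprb* at 11.9 CPM in CKO replicate 6, with the next at 8.63 CPM.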

How the results depend on the processing

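No paired analysis was possible because each comparison has 1 control library. In brain ECs, *Ptprb* and *Angpt1* kept a ratio under 1 in every alternative run. For *Ptprb* the ratio was 0.491 with TMM, 0.431 as the mean over nuclei, 0.638 with endothelial markers in place of the label, 0.563 in nuclei of at least 1000 UMIs, 0.314 in nuclei with few pericyte marker UMIs, 0.553 without cycling marker UMIs and 0.589 with both of the last limits on cycling and depth, an alternative chosen after seeing the data. *Angpt1* was at 0.349 with endothelial markers, and its low-pericyte subset gave no value because 1 library had 0 UMIs. *Angpt2* was at 1.62 with endothelial markers, 2.70 with few pericyte marker UMIs, 1.01 without cycling marker UMIs and 0.936 with the added depth limit. *Tek* was at 0.923 with TMM, 0.824 as the mean over nuclei, 1.19 with endothelial markers, 1.06 in deep nuclei, 0.661 with few pericyte marker UMIs, 1.04 without cycling marker UMIs and 1.10 with the added depth limit, so it has no stable direction. *Tie1* was at 1.05 with TMM, 0.994 as the mean over nuclei, 1.39 with endothelial markers, 1.03 with few pericyte marker UMIs and 1.22 with the added depth limit. The cause of these shifts was not tested. Of genes in ECs, 1825 pass the factor of 1.5 at a minimum of 200 UMIs, in place of 3486 at 50 (7924 and 11351 genes measured), and 1 of 4 members in place of 2 of 5, as *Angpt1* falls under the minimum. Outside ECs, *Ptprb* in vSMCs was at 0.949 with TMM and 0.970 as the mean over nuclei, *Tek* at 0.915 and 0.841, *Angpt2* at 0.968 and 0.725, with 1.38 in nuclei of at least 1000 UMIs, and *Tie1* at 0.871 as the mean over nuclei, so no vSMC ratio above 1 keeps its side. *Angpt2* in pericytes, from 1 CKO UMI, was at 0.483 with TMM. With TMM for the remaining cell types, added after seeing the data, members past 1.5 are 1 higher and 11 lower in place of 3 and 7.

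In the retina, 0 pairs of a member and a cell type passed an adjusted p of 0.05 with edgeR quasi-likelihood tests under 9 alternatives or with DESeq2, but the low-count filter left 12 of the 20 pairs in batch 1 alone, with none in astrocytes or MG, and 18 without CKO replicates 4 and 5, with none in MG. The smallest adjusted p for a member was 0.0668, for *Angpt1* in MG without the filter on low counts. At an unadjusted p under 0.05, 2 pairs passed with DESeq2 and 3 with edgeR. With edgeR alternatives there were 0 of 12 in batch 1 alone, 1 of 18 without CKO replicates 4 and 5, 2 of 20 with kit, with no covariate or without CKO replicate 3, 3 with RLE factors or without CKO replicate 2, 4 without CKO replicate 1, and 4 of 64 without the filter. *Angpt1* in astrocytes misses it with kit, with no covariate and without CKO replicate 1, and *Ptprb* in MG without CKO replicate 3 or the filter. The fitted log2 fold changes of *Angpt1* in astrocytes are then 6.92, 6.80 and 6.62, beside 7.67. They rest on 0 UMIs in 12 control nuclei, so the data do not determine their size. Of 190 log2 fold changes under alternatives 14 turned sign, none past the test. With kit in place of batch they are 0.0442 for *Ptprb* and -0.46 for *Angpt2* in CBC, and 0.0162 for *Angpt1* in Gly_AC. With no covariate they are -0.63 for *Angpt2* in CBC, -0.0163 for *Tek* in GABA_AC, 0.0695 for *Angpt1* in Gly_AC and -0.0680 for *Ptprb* in RGC, where DESeq2 gives -0.0305. Without CKO replicates 1, 2 and 3 in turn or 4 and 5 together (6 to 11 were not left out), they range from -0.225 to 0.0412 for *Ptprb* and from -0.537 to 0.361 for *Angpt2* in CBC, from -0.464 to 0.326 for *Tek* in GABA_AC, from -0.327 to 0.141 for *Ptprb* and from -0.0419 to 0.641 for *Tek* in Gly_AC, and from -1.03 to 0.329 for *Ptprb* in RGC. In batch 1 alone, CKO minus control is -19.2 CPM in place of 0.114 CPM for *Angpt2* in HC, and 1.31 CPM in place of -1.39 CPM for *Angpt4* in astrocytes. The cause was not tested.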
